A study of Mus musculus with 36 samples.

Results

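The odorant receptors numbered Olfr986 to Olfr1140 form a long run of related genes, nearly all on mouse chromosome 2. Members were taken by symbol, as GENCODE vM21 gives it: Olfr with a number from that of Olfr986 to that of Olfr1140 and no suffix, without Olfr1026, Olfr1104, Olfr1110 and Olfr1126. That gave 103 of the 1107 odorant receptor genes listed in the files, which hold 57010 gene identifiers. The annotation places 102 of the 103 on chromosome 2, 40 members on the plus and 63 on the minus strand, and it places Olfr986 on chromosome 9, against the name of the run. All are annotated as protein coding except Olfr1010, a polymorphic pseudogene.

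Each olfactory sensory neuron uses 1 odorant receptor gene, so the receptor RNAs of the olfactory epithelium are a readout of which neurons are present. Odorant receptors are G protein-coupled receptors in the cilia of these neurons. When they bind an odorant they raise cyclic AMP, a cation channel opens and the neuron fires. Firing is followed by phosphorylation of ribosomal protein S6, and an antibody to phosphorylated S6 (pS6) pulls down the ribosomes of such neurons with their RNA, receptor RNA included.

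RNA from pS6 immunoprecipitates of olfactory epithelium was sequenced for 36 wild-type C57BL/6J males aged 8 weeks, 3 mice in each of 12 groups. The mice spent 4 h without odor and 90 min with a filter paper that was empty (no odor) or carried 10 µL of odorant. There were 3 sets, given as batches in the labels, each with its own no-odor controls. The AD set held acetophenone, decanal and their mixture, the OC set octanal, cis-3-hexenol and their mixture, and the FM set a floral fragrance, a mint fragrance and a floral-mint mixture. Single odorants were undiluted, binary mixtures held equal parts, and the fragrances were blended by a company. Mixtures carried the same 10 µL, so each part of a binary mixture was given in less volume than alone. Levels below are CPM (counts scaled to library size and a common total), given for libraries 1, 2 and 3 of a group in that order (acetophenone 2 is library 2 of its group), and log2 changes, given ± their standard error, are from edgeR's quasi-likelihood test. Its p-values were adjusted by Benjamini-Hochberg across every gene tested in the set. A member was called higher or lower at an adjusted p under 0.05. The labels call the samples biological replicates. In such bulk libraries, fewer neurons of a type, less receptor RNA per neuron and fewer ribosomes pulled down per neuron cannot be told apart.

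Libraries held 16.0 to 26.4 M counts, of which odorant receptor genes took 0.225% to 0.706%, and the 103 members took 2.44% to 8.86% of those receptor counts, 2019 to 12442 counts per library. Between 79 and 97 members had a count in a library. Olfr1061 was at 0 counts in all 36 libraries, and 18 members never exceeded 10 counts. The filter on low counts left 77 members for testing in AD, 75 in OC and 69 in FM. It left 67 members in all 3 sets and 22 in none, so the counts of calls below say nothing about those 22. Among marker genes, all 8 of mature olfactory sensory neurons were present, with a summed level of 6932 CPM or more in every library, and the 3 vomeronasal markers summed to at most 3.67 CPM.

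Without odor the run was led by a few genes. Per kilobase of exon, the highest mean levels over the 9 controls belonged to Olfr1112 (6.42 ± 3.06 CPM per kilobase, SD, n = 9), Olfr1018 (4.71 ± 2.28), Olfr1093 (2.37 ± 0.699), Olfr1124 (1.99 ± 0.464), Olfr1080 (1.81 ± 0.657) and Olfr1015 (1.07 ± 0.339). The ranges of mean ± SD overlapped between neighbours in this order, but that SD over 9 controls includes differences between the sets. Neighbours were not compared within a set. The median member was at 0.251 CPM per kilobase, and these 6 made up 32.5% of the members' CPM in controls. Levels of both leading genes were highest in the AD controls. Olfr1112 was at 10.1 ± 2.31 CPM per kilobase in AD, 4.38 ± 0.788 in OC and 4.83 ± 1.26 in FM controls (SD, n = 3). Olfr1018 was at 21.7, 21.8 and 29.0 CPM in the AD controls, 11.8, 12.7 and 9.38 in the OC controls and 9.40, 10.1 and 9.21 in the FM controls. The sets are batches, so batch and level cannot be told apart there.

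The summed level of the 103 members was higher than in controls with 8 of the 9 odors, without overlap between libraries. It was 146 ± 13.4 CPM (SD, n = 3) in AD controls, and acetophenone, decanal and mixture libraries had 413 ± 127, 185 ± 10.5 and 289 ± 10.1 CPM. OC controls were at 125 ± 21.3 CPM, octanal libraries at 264 ± 60.3, cis-3-hexenol libraries at 173 ± 8.03 and their mixture at 231 ± 16.4. FM controls were at 97.4 ± 5.27 CPM, floral libraries overlapped them at 112 ± 8.02, and mint and floral-mint stood at 203 ± 26.2 and 177 ± 25.2. The single member with the largest rise carried 40.1% of the increase with acetophenone (Olfr1124), 57.8% with decanal (Olfr1116) and 70.8% with mint (Olfr1123). Without Olfr1116 the decanal libraries overlapped their controls.

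**Figure D1:**
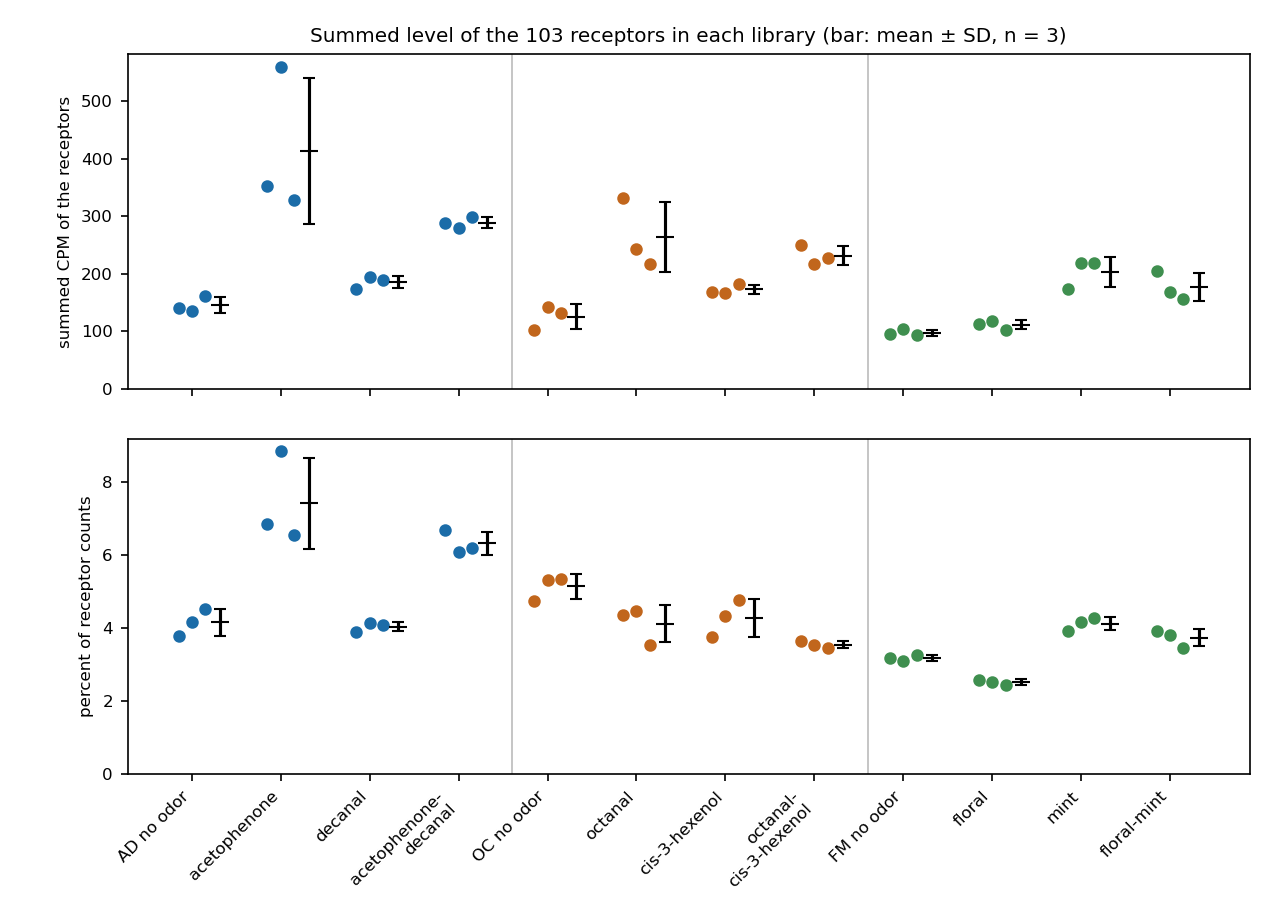
Summed CPM of the 103 receptors (top) and their percent of all odorant receptor counts (bottom) in each of 36 libraries, by group. Points are libraries, bars are the mean ± SD of 3; the 3 acetophenone libraries reach 328 to 559 CPM against 136 to 161 in their controls.

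As a share of all odorant receptor counts the run behaved differently from its sum. The share was 4.16% ± 0.372 in AD controls and 7.42% ± 1.26 with acetophenone, and it was 3.18% ± 0.0745 in FM controls and 4.12% ± 0.176 with mint; neither pair overlapped. In the OC set it was lower with the mixture, 3.54% ± 0.102 against 5.14% ± 0.350 in controls, and with octanal, 4.12% ± 0.507, again without overlap. Floral gave 2.52% ± 0.0750, below every FM control. The AD mixture gave 6.32% ± 0.312 and floral-mint 3.74% ± 0.242, each above every control of its set. Decanal gave 4.04% ± 0.129 and cis-3-hexenol 4.28% ± 0.514, both overlapping their controls. Odorant receptor genes together took 0.243% of counts in OC controls, 0.599% with octanal and 0.631% with the OC mixture, so a higher sum of the members went with a lower share of the receptors. Receptor genes also took more with every AD odor, 0.4478% to 0.5415% at the means against 0.3662% in controls. In FM they took 0.4291% to 0.4841% with odor against 0.3265% in controls.

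Genes of the transduction pathway and markers of mature neurons were called higher in all 9 odor comparisons in part. Of 23 tested genes of olfactory transduction and receptor choice, 16 were called higher after acetophenone exposure, 9 after decanal and 10 after the AD mixture. The counts were 19, 11 and 19 for octanal, cis-3-hexenol and the OC mixture (1 was called lower with octanal and 1 with the OC mixture), and 9, 14 and 13 for floral, mint and floral-mint. With acetophenone Gnal, the G protein subunit that couples receptors to adenylyl cyclase, rose by 1.17 on the log2 scale (adjusted p 4.66e-05), Ric8b, its chaperone, by 1.06 (0.000158) and Cnga2, the transduction channel, by 0.81 (0.000585). Of the 8 mature neuron markers, 8 were called higher with acetophenone, octanal and the octanal mixture, and 3 to 7 with the other odors. Their summed level ran from 7948 to 9407 CPM in AD controls against 13733 to 21115 with acetophenone, and from 6932 to 9191 in OC controls against 17656 to 25638 with octanal. All 5 red blood cell markers were called lower with each of the 3 OC odors, at 46733 to 55322 CPM summed in controls against 4425 to 17239 with odor, and in the AD set the sum was 9365 to 12443 CPM in controls, 1516 to 7880 with acetophenone and 23354 to 25407 with decanal. In the OC set 4, 1 and 3 of 4 immune markers and 4, 3 and 4 of 4 bone and osteoclast markers were also called lower in its 3 odor comparisons, in the same order. Fewer were called lower elsewhere: Cd68, Acp5 and Ctsk with acetophenone (log2 changes of -0.70, -1.73 and -1.57) and with mint (-0.46, -0.75 and -0.82), Cd68 and Ptprc with the AD mixture and Ctsk with floral-mint, while C1qa was called higher with decanal. The part of these cell markers in the receptor changes was not tested. Scaling libraries to the receptor genes in place of all genes shifted the median gene by -0.15 (acetophenone), -0.16 (octanal), -0.51 (cis-3-hexenol) and -0.45 (OC mixture) on the log2 scale.

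Of the 81 members tested in at least 1 set, 33 were called in at least 1 of the 9 odor comparisons and 48 in none. Neither this count nor the split by set below was made for other genes, so neither is read as a trait of the members. Acetophenone, octanal and the octanal mixture gave the most calls, decanal the fewest. Olfr1020 was the single member called lower; at an unadjusted p under 0.05, between 0 and 3 members were lower in each odor comparison, and DESeq2 called 1 member lower with decanal. Higher calls came from 1 set for 18 members, from 2 sets for 12 and from all 3 for Olfr1116 and Olfr1129. The median tested member moved little: its log2 change ran from -0.17 with floral to 0.44 with cis-3-hexenol, where the median of the other receptor genes was also 0.44, while over all genes the median stayed between -0.05 and 0.05.

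**Figure D2:**
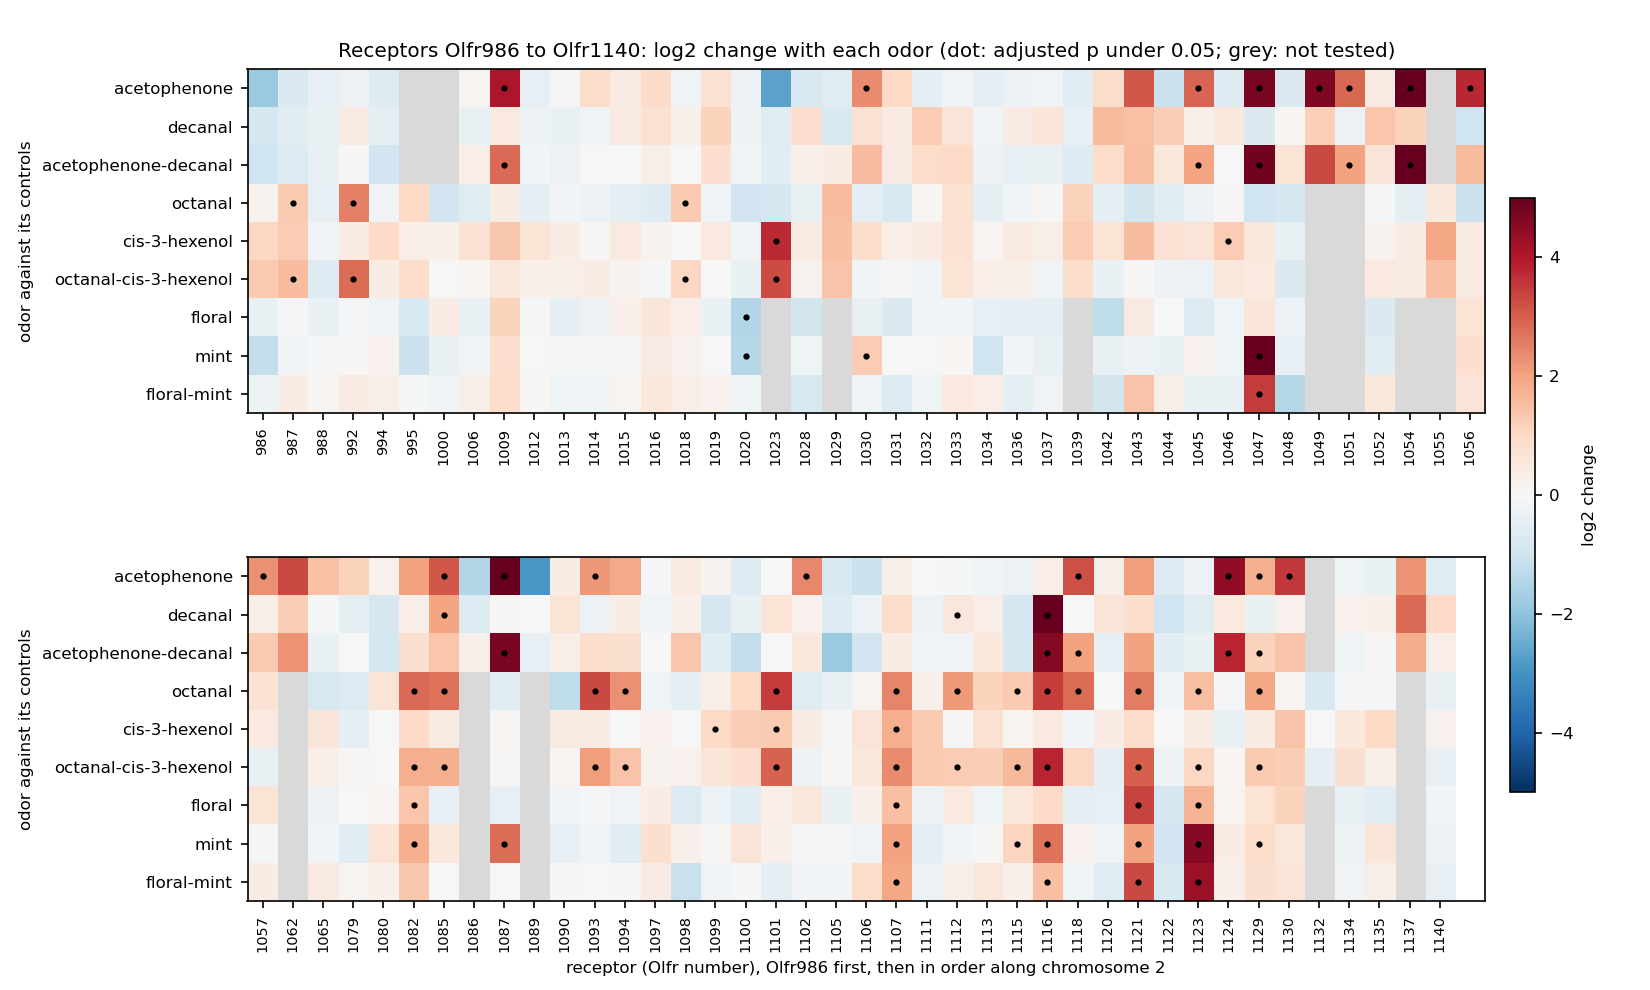
Log2 change of the 81 members tested in at least 1 set (columns, Olfr986 first, then in order along chromosome 2) with each of 9 odors against its controls (rows); red is higher, blue lower, grey not tested, a dot a call. Of acetophenone's 17 dots, 7 lie between Olfr1045 and Olfr1057, bounds set after the values were seen. Most of octanal's lie from Olfr1082 on, and Olfr1107 is dotted in every OC and FM row.

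Acetophenone, an aromatic ketone, raised 17 of the 77 members tested (22.1%), while 4.22% of all genes tested and 11.3% of the other receptor genes were called higher. Olfr1124 (ENSMUSG00000050772) had the largest rise in CPM, a scale with no correction for length. It was at 5.56, 3.92 and 5.99 CPM in controls and 49.6, 188 and 100.1 with acetophenone, a log2 change of 4.44 ± 0.401 (adjusted p 4.10e-05). Every acetophenone library lay above every control, and among the former library 2 was the highest and library 1 the lowest. In decanal libraries Olfr1124 was at 7.82, 5.06 and 8.72 CPM, and in the 6 control libraries of the OC and FM sets it ran from 3.10 to 5.85.

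Olfr1047 (ENSMUSG00000075196) and Olfr1087 (ENSMUSG00000075174) rose from lower levels, by log2 changes within the error of that of Olfr1124. Olfr1047 was at 0.358, 0.397 and 0.825 CPM in controls and 19.8, 12.4 and 9.95 with acetophenone, a log2 change of 4.73 ± 0.441 (adjusted p 4.66e-05). Olfr1087 was at 1.11, 0.661 and 0.217 CPM in controls and 38.3, 18.7 and 16.5 with acetophenone, a log2 change of 5.18 ± 0.544 (adjusted p 0.000106). For both genes library 1 was the highest of the acetophenone libraries, so they did not share the ranking seen for Olfr1124. Their coding sequences are 82.06% identical.

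The next 5 members by p were Olfr1009 (4.04), Olfr1054 (5.56), Olfr1056 (3.78), Olfr1045 (2.92) and Olfr1051 (2.86), with adjusted p of 0.000947 to 0.00582 by edgeR. Olfr1054 rested on 3, 8 and 0 counts in controls against 211, 155 and 166 with acetophenone, so its fold depends on few control counts. Olfr1049, among the further calls, had under 10 counts in every control too. The other 9 called members were Olfr1030, Olfr1049, Olfr1057, Olfr1085, Olfr1093, Olfr1102, Olfr1118, Olfr1129 and Olfr1130, with log2 changes of 1.76 to 4.67. Several of these were far higher in acetophenone library 2 than in the other libraries: Olfr1118 was at 7.31, 39.0 and 16.4 CPM against 1.79, 1.28 and 3.56 in controls, and Olfr1093 at 15.3, 40.6 and 10.6 against 6.40, 4.63 and 3.91. For all 17 the acetophenone libraries lay above the controls. Leaving out acetophenone library 2 left 10 calls, and leaving out control 2 left 10.

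Short coding stretches of 4 members that the results turn on are printed so that their letters can be compared around a motif common among odorant receptors. They are 54 bases of the coding strand around the codons of the DRY motif (capitals), from GENCODE vM21 transcripts of GRCm38, 5′ to 3′.
Olfr1047: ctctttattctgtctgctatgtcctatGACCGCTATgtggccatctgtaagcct
Olfr1087: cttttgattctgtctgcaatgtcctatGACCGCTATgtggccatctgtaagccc
Olfr1123: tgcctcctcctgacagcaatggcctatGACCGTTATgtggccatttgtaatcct
Olfr1124: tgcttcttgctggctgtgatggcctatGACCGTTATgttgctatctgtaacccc
Over the whole coding sequence, of 918 to 1041 bases (median 942), the 5253 pairs of members were 59.5% identical at the median, with a range of 52.55% to 98.71%. Pairs of neighbours were 70.04% identical at the median.

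Decanal, a straight-chain aldehyde, raised 3 of 77 members (3.90%), against 10.8% of all genes tested and 7.88% of other receptor genes called higher. The call that stands out is Olfr1116 (ENSMUSG00000070855). It was at 0.517, 0.485 and 0.652 CPM in controls and 27.7, 13.4 and 29.6 with decanal, a log2 change of 5.41 ± 0.326 (adjusted p 2.34e-07). No decanal library overlapped a control, and acetophenone libraries stayed at 0.630, 0.808 and 0.674 CPM. Olfr1112 rose by 0.55 ± 0.171 (adjusted p 0.0323) and Olfr1085 by 1.97 ± 0.643 (adjusted p 0.0406), both near the threshold. Only Olfr1116 was called without control 2, without decanal 1, without decanal 2 or with scaling to the receptor genes, leaving 1 call. Olfr1112 was also lost without control 1 (adjusted p 0.138), and Olfr1085 without control 3 (0.109) or decanal 3 (0.0504).

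Acetophenone and decanal differed directly in 25 of 77 members (32.5%), against 29.5% of all genes and 30.4% of other receptor genes. There were 20 higher with acetophenone and 5 with decanal. The 4 with the smallest p on the acetophenone side were Olfr1047 (5.44), Olfr1124 (3.96), Olfr1087 (5.13) and Olfr1056 (4.79). On the decanal side they were Olfr1116 (-5.06), Olfr1112 (-0.67), Olfr1032 (-1.76) and Olfr1044 (-2.30). Olfr1112 missed the threshold without decanal 1 (adjusted p 0.0556) and Olfr1044 without decanal 2 (0.0520). Olfr1032 and Olfr1044 were not called with decanal against controls, at 1.26 and 1.22.

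The acetophenone-decanal mixture raised 10 of 77 members (13.0%), the same share as in the other receptor genes (13.0%), against 10.9% of all genes. Both components showed in it. Olfr1116 was at 12.9, 15.7 and 11.8 CPM, a log2 change of 4.60 ± 0.322 (adjusted p 1.66e-06), and Olfr1047 at 18.7, 9.78 and 16.1, a change of 4.81 ± 0.441 (adjusted p 1.89e-05). Olfr1124 was at 60.3, 74.4 and 80.9 CPM, a change of 3.80 ± 0.393 (adjusted p 5.55e-05), and all 3 genes stood clear of controls in every library. Olfr1087, Olfr1054, Olfr1009, Olfr1045 and Olfr1051 followed (4.73, 4.99, 2.83, 1.99 and 2.00), with Olfr1118 and Olfr1129. Olfr1045 missed the threshold without mixture 1 (adjusted p 0.0523), and Olfr1051 without control 1 (0.0577) or control 2 (0.0596).

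Set against acetophenone alone, the mixture differed in 8 members, 2 higher and 6 lower, 10.4% of those tested, with 25.7% of all genes and 18.6% of other receptor genes called. Olfr1116 was higher by 4.25 ± 0.312 (adjusted p 2.37e-06) and Olfr1032 by 1.44 ± 0.457 (adjusted p 0.0328). Lower were Olfr1056 (-2.19), Olfr1065 (-1.81), Olfr1102 (-1.89) and Olfr1130 (-2.10), then Olfr1093 and Olfr1085. Acetophenone library 2 stood apart here too: Olfr1130 was at 4.91, 15 and 2.53 CPM in acetophenone libraries and 1.47, 1.33 and 2.41 in mixture libraries, and its change was -1.1 without that library (adjusted p 0.256). The count was 2 without acetophenone 2 or without mixture 3, 4 without mixture 2, and 5 with scaling to the receptor genes, then 3 higher and 2 lower. Of the members given a value here, all but Olfr1116 lost the call without at least 1 library, Olfr1056 without acetophenone 2 (adjusted p 0.0565).

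Against decanal alone the mixture was higher in 4 members, Olfr1047 (5.51), Olfr1124 (3.32), Olfr1087 (4.69) and Olfr1054 (3.83), 5.19% of those tested, with 0.251% of all genes and 5.21% of other receptor genes higher. Olfr1054 lost its call without decanal 1, decanal 3, mixture 1 or mixture 3 (adjusted p 0.0737 to 0.284). The departure of the mixture from the sum of both log2 changes was called for 0 of 77 members by edgeR, with 0.241% of all genes and 0.762% of other receptor genes called. At an unadjusted p under 0.05 it was lower in 9 members, and DESeq2 called 1. The members' median departure was -0.40, against -0.19 in the other receptor genes. Departures are from a product of fold changes, and the lower volume of each component in the mixture was not corrected for.

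**Figure D3:**
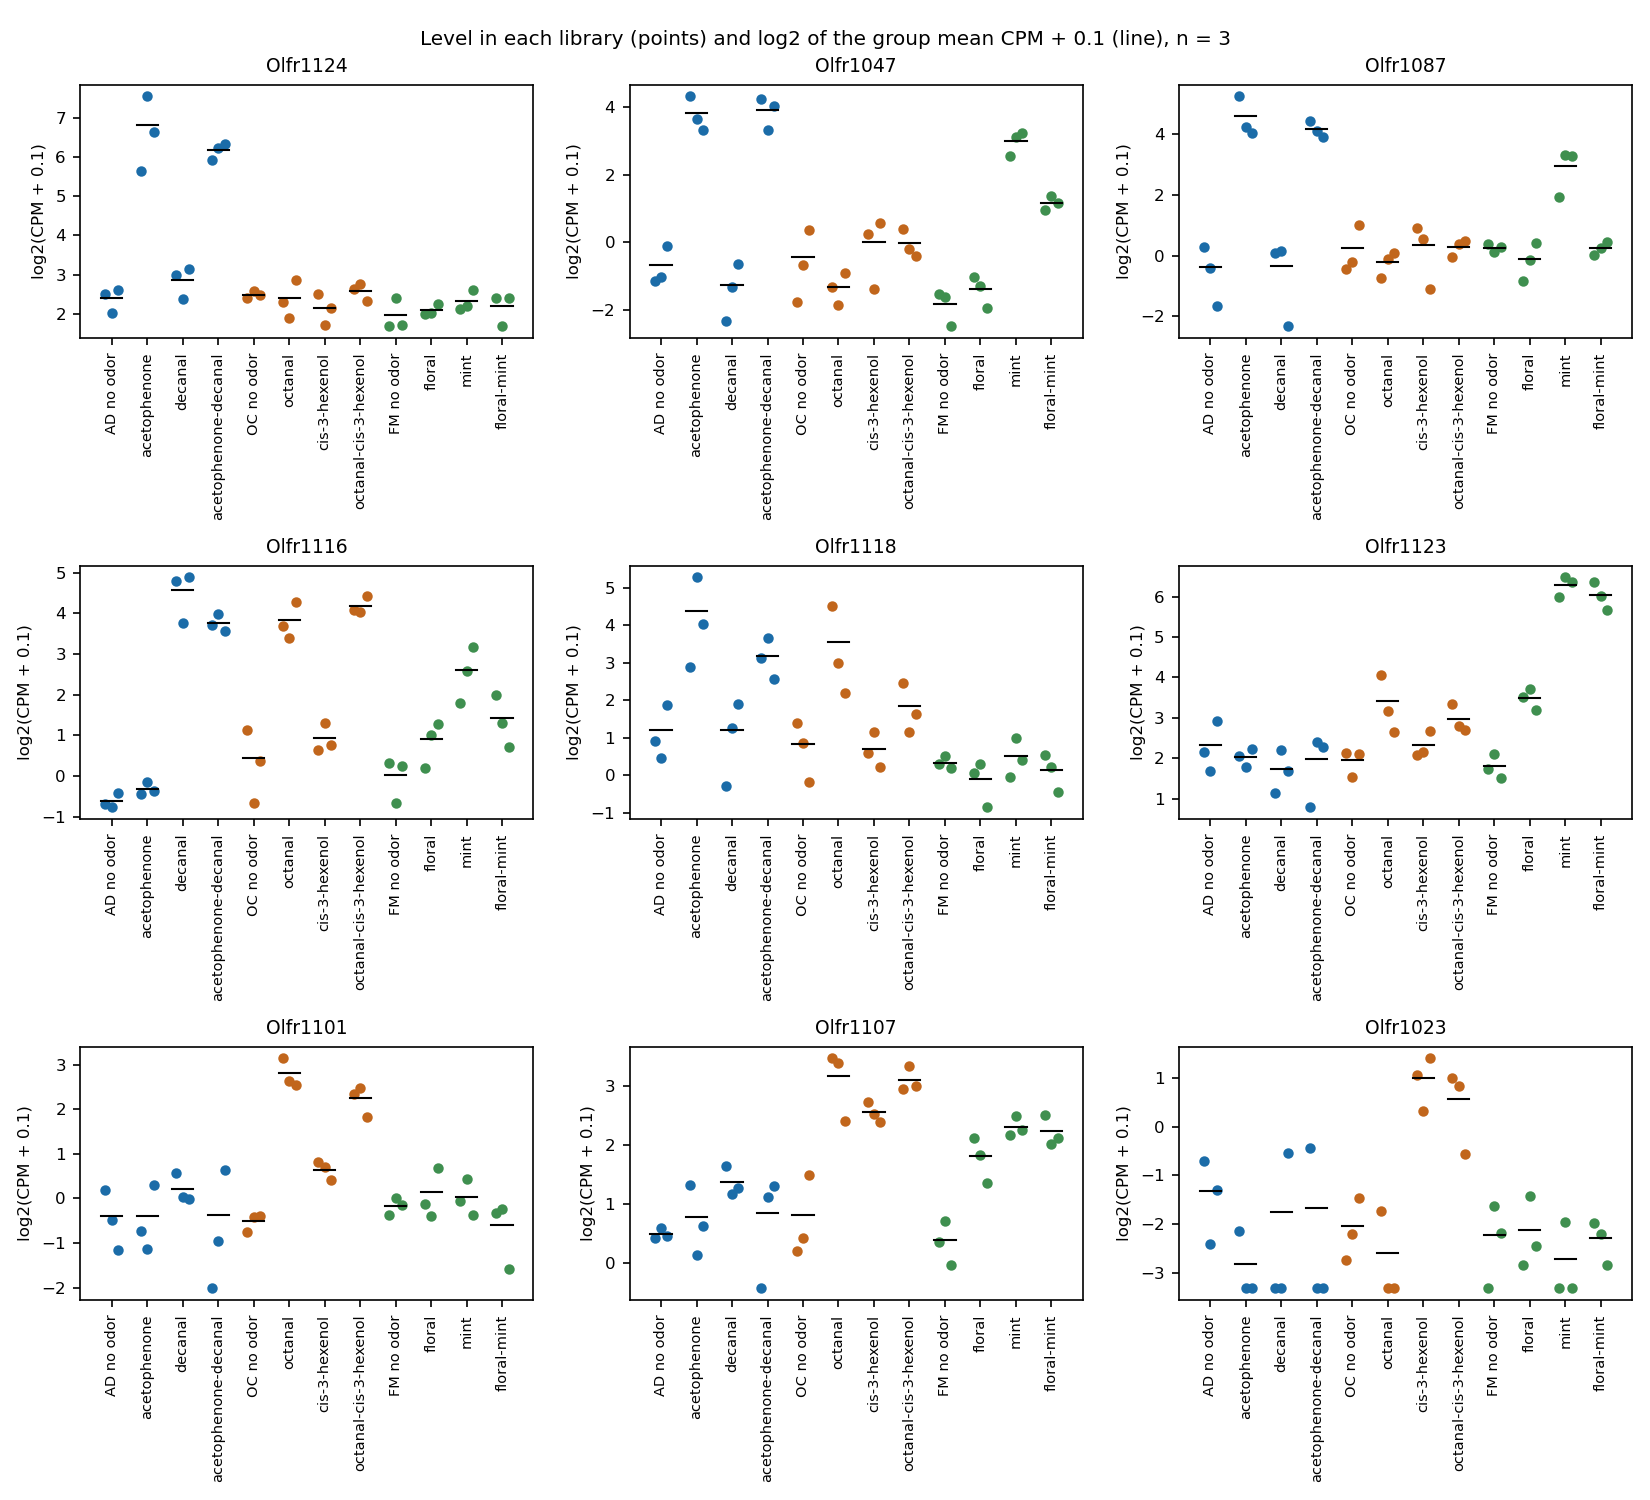
Level of 9 members in each of 36 libraries, as log2(CPM + 0.1), by group; points are libraries, lines the log2 of the group mean plus 0.1, blue the AD, orange the OC and green the FM set. Olfr1124 is high with acetophenone and its mixture, Olfr1047 and Olfr1087 also with mint, and Olfr1116 with decanal, octanal and mint.

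Octanal, an aldehyde with a shorter chain than decanal, raised 16 of 75 members (21.3%), against 17.9% of all genes called higher and 21.3% of other receptor genes. Olfr1101 (ENSMUSG00000075167) led by p. It was at 0.496, 0.649 and 0.656 CPM in controls and 8.76, 6.14 and 5.73 with octanal, a log2 change of 3.52 ± 0.325 (adjusted p 2.95e-06). Olfr1116 was at 2.08, 0.531 and 1.18 CPM in controls and 12.8, 10.3 and 19.2 with octanal, a change of 3.45 ± 0.366 (adjusted p 1.02e-05). Both genes stood clear of controls in all 3 octanal libraries, and library 1 was the highest for Olfr1101 while library 3 was for Olfr1116.

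The largest rise in CPM, which is not corrected for length, was that of Olfr1093, at 3.32, 3.96 and 5.45 CPM in controls and 67.5, 42.4 and 13.9 with octanal, a log2 change of 3.29 ± 0.431 (adjusted p 5.42e-05). Every octanal library was above the controls, but library 1 was far above library 3. The leading genes of the unexposed epithelium also rose: Olfr1018 by 1.32 ± 0.175 (adjusted p 5.97e-05) and Olfr1112 by 2.15 ± 0.297 (adjusted p 8.38e-05). Olfr1107 (2.44), Olfr1085 (2.72) and Olfr1082 (2.84) followed, each above controls in every library. The other calls were Olfr987, Olfr992, Olfr1094, Olfr1115, Olfr1118, Olfr1121, Olfr1123 and Olfr1129, with changes of 1.32 to 2.78; the libraries of Olfr987 overlapped controls.

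The alcohol cis-3-hexenol raised 5 of 75 members (6.67%), against 2.58% of all genes and 7.95% of other receptor genes called higher. Olfr1107 was at 1.04, 1.24 and 2.69 CPM in controls against 6.55, 5.67 and 5.16 in exposed libraries, which is a change of 1.83 ± 0.350 (adjusted p 0.00843). Olfr1023 (ENSMUSG00000050128) was found at 1, 2 and 4 counts in controls and 42, 28 and 48 in exposed libraries, a change of 3.73 ± 0.797 (adjusted p 0.0154), and at 4, 0 and 0 counts with octanal. Olfr1046, Olfr1101 and Olfr1099 rose by 1.25, 1.29 and 1.01 (adjusted p 0.0299 to 0.0477). All 5 lay above controls in every library, but the calls were thin: the count was 1 without control 1, control 2 or cis-3-hexenol 3, 2 without control 3 or cis-3-hexenol 1, and 3 without cis-3-hexenol 2. With scaling to the receptor genes it was 3, of which 2 were higher and 1 lower, and the changes of Olfr1046, Olfr1101 and Olfr1099 were 0.77, 0.80 and 0.53 (adjusted p 0.116 to 0.189). Olfr1107 remained called in all alternatives run, and Olfr1023 was lost without control 1, control 2 or cis-3-hexenol 3 (adjusted p 0.0554 to 0.0610).

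Octanal and cis-3-hexenol differed in 21 of 75 members (28.0%), against 21.0% of all genes and 28.1% of other receptor genes. Octanal was the higher in 14 and cis-3-hexenol in 7, or in 16 and 3 under scaling to the receptor genes. Olfr1116 (2.95), Olfr1101 (2.22), Olfr1112 (2.22) and Olfr1018 (1.30) led on the octanal side. Olfr1023 (-4.61), Olfr1030 (-1.37), Olfr1046 (-1.19) and Olfr1012 (-1.15) led on the other. Olfr1030 was at 3.25, 2.89 and 4.54 CPM in octanal libraries, 8.34, 8.01 and 11.3 in cis-3-hexenol libraries and 4.16, 5.43 and 5.58 in controls. Olfr1046 lost its call without cis-3-hexenol 3 (adjusted p 0.0987) or octanal 1 (0.0561), and Olfr1012 without cis-3-hexenol 1, cis-3-hexenol 2 or octanal 1 (0.0544 to 0.0786). Both also lost it with scaling to the receptor genes (0.0807 and 0.0881).

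The octanal-cis-3-hexenol mixture raised 16 of 75 members (21.3%), against 17.7% of all genes and 23.1% of other receptor genes called higher. Olfr1116 was at 16.8, 16.4 and 21.3 CPM, a log2 change of 3.81 ± 0.367 (adjusted p 5.43e-06). Olfr1101 (2.94), Olfr1107 (2.38), Olfr1121 (3.00), Olfr1115 (1.61), Olfr992 (2.79), Olfr1018 (1.04) and Olfr1093 (2.10) were next by p, each clear of controls in all 3 libraries. Olfr1023, which marked cis-3-hexenol, was at 1.90, 1.68 and 0.575 CPM in the mixture against 0.0496, 0.118 and 0.262 in controls, a change of 3.27 ± 0.802 (adjusted p 0.00592). Olfr1107 and Olfr1101, called with cis-3-hexenol, were also called with octanal, while Olfr1023 was not. Olfr1046, called with cis-3-hexenol, and Olfr1118, called with octanal, were not called in the mixture.

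Compared with octanal alone, the mixture was called different in 0 of 75 members by edgeR, with 0.0715% of all genes and 1.41% of other receptor genes called. At an unadjusted p under 0.05 there were 13, DESeq2 called 1, and leaving out octanal 3 gave 1. Compared with cis-3-hexenol alone it was higher in 10 and lower in 1 (14.7%), with 12.9% of all genes and 15.3% of other receptor genes called. Olfr1116 (3.31), Olfr1018 (1.02), Olfr1115 (1.49) and Olfr1101 (1.65) were higher, and Olfr1030 was lower (-1.0). That count was 5 without cis-3-hexenol 3 and 6 without cis-3-hexenol 2 or mixture 1, and Olfr1030 was lost without cis-3-hexenol 2, cis-3-hexenol 3, mixture 1 or mixture 3 (adjusted p 0.0620 to 0.125). The departure from the sum of both changes was called for 0 members by edgeR, with 0.0869% of all genes and 0.897% of other receptor genes called; 5 had an unadjusted p under 0.05, DESeq2 called 2, and the count was 1 without octanal 2 and 2 without octanal 3.

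Both aldehydes raised Olfr1116, Olfr1112 and Olfr1085, which are all 3 of decanal's calls and 3 of octanal's 16. The like overlap was not counted in the other receptor genes. Decanal's calls of Olfr1112 and Olfr1085 were lost in 5 and 6 of 11 alternatives, while its call of Olfr1116 was kept in all 11. Each odor was set against its own controls and the changes were compared in a joint fit of the AD and OC sets, which crosses batches. Of 81 members tested there, 11 rose more with octanal and 1 with decanal (14.8% called), against 29.2% of all genes and 20.2% of other receptor genes. Octanal's change was larger for Olfr1093 by 3.55 ± 0.660 (adjusted p 0.000316), for Olfr1115 by 2.19 ± 0.433 (adjusted p 0.000569), for Olfr1018 by 1.03 ± 0.214 (adjusted p 0.000882) and for Olfr1112 by 1.57 ± 0.356 (adjusted p 0.00194). Decanal's change was larger for Olfr1116, with a difference of -1.99 ± 0.518 (adjusted p 0.00577). Without OC control 1, the highest control for Olfr1116, that difference was -1.38 (adjusted p 0.0634). For Olfr1093, the largest of these differences, decanal libraries were at 2.81, 4.50 and 5.03 CPM against 6.40, 4.63 and 3.91 in their controls, overlapping them.

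**Figure D4:**
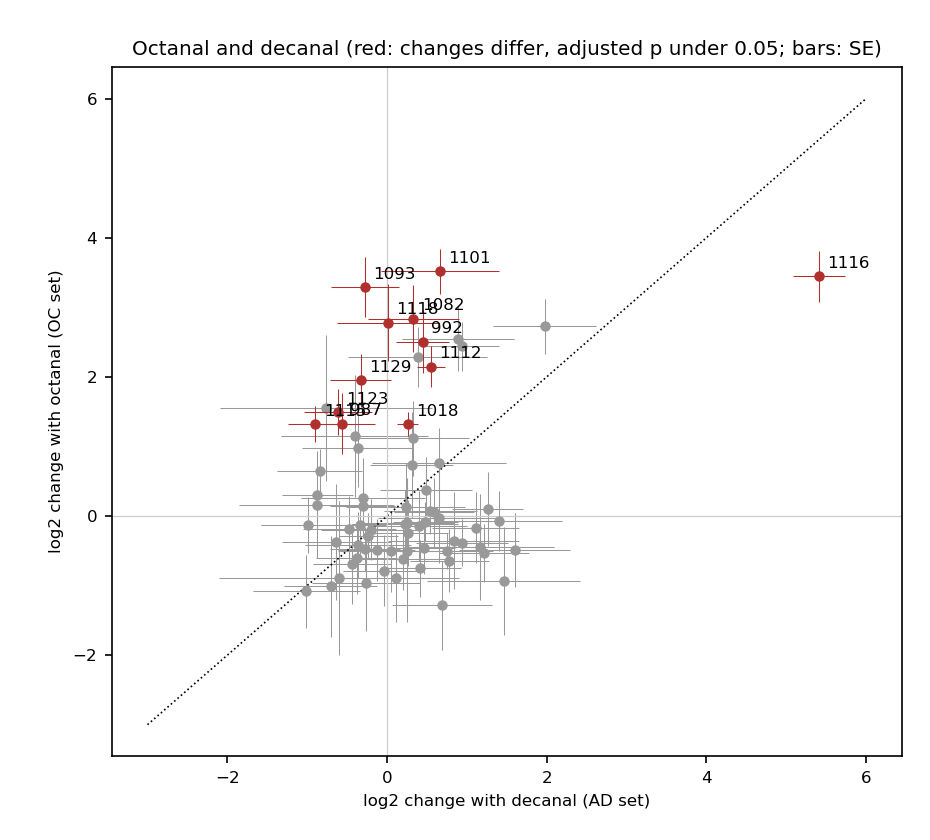
Log2 change of the 71 members tested in both sets with decanal (horizontal, AD set) and octanal (vertical, OC set), each against its own controls; bars are standard errors, red points the members whose changes differ (adjusted p under 0.05), the dotted line equal change. Olfr1116 is the red point below the line, and the other 11 lie above it.

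The floral fragrance changed 5 of 69 members (7.25%), 4 higher and 1 lower, against 14% of all genes and 11.6% of other receptor genes. Olfr1123 (ENSMUSG00000043274) was at 3.20, 4.17 and 2.75 CPM in controls and 11.3, 12.9 and 9.06 with floral, a log2 change of 1.71 ± 0.214 (adjusted p 0.000169). Olfr1121 was found at 3, 9 and 7 counts in controls and 57, 80 and 53 with floral, a change of 3.36 ± 0.426 (adjusted p 0.000193). Olfr1107 rose by 1.5 ± 0.262 (adjusted p 0.00245) and Olfr1082 by 1.39 ± 0.413 (adjusted p 0.0362). All 4 were above controls in every library. Olfr1020 fell, from 1.64, 1.5 and 0.837 CPM to 0.623, 0.350 and 0.451, a change of -1.48 ± 0.408 (adjusted p 0.0276). Olfr1082 was lost without control 1, control 3, floral 1 or floral 3 (adjusted p 0.101 to 0.156) and Olfr1020 without control 1, control 2, floral 2 or floral 3 (0.0743 to 0.121), and the count was 3 without control 1 or floral 3.

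Mint changed 11 of 69 members (15.9%), 10 higher and 1 lower, against 11.2% of all genes and 14.1% of other receptor genes. Olfr1123 was the strongest: 63.0, 89.3 and 82.6 CPM against 3.20, 4.17 and 2.75 in controls, a log2 change of 4.53 ± 0.216 (adjusted p 5.45e-09). Olfr1047 was at 5.75, 8.57 and 9.21 CPM against 0.249, 0.225 and 0.0797, a change of 5.35 ± 0.360 (adjusted p 2.65e-07), and Olfr1087 at 3.74, 9.78 and 9.60 against 1.21, 0.976 and 1.12, a change of 2.80 ± 0.365 (adjusted p 0.000214). For these 3 genes every mint library lay above every control. Olfr1047 had under 10 counts in every FM control, as did Olfr1121, so their folds depend on few control counts. Olfr1107 (2.01), Olfr1116 (2.71), Olfr1121 (2.01), Olfr1082 (1.76) and Olfr1030 (1.27) followed, with Olfr1129 and Olfr1115, and Olfr1020 fell by 1.44 (adjusted p 0.0379).

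Part of mint's list depended on single libraries. The count was 5 without control 1 and 7 without mint 2. Olfr1121 was lost without control 1 (adjusted p 0.0605), Olfr1082 without control 1 or control 3 (0.0705 and 0.0581), and Olfr1030 without control 1, control 2 or mint 2 (0.0641 to 0.131). Olfr1020 was lost without control 1, control 2 or any 1 mint library (0.0552 to 0.159), and with scaling to the receptor genes (0.0575). Olfr1123, Olfr1047, Olfr1107, Olfr1087 and Olfr1116 remained called in every alternative run.

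Floral and mint differed directly in 3 of 69 members (4.35%), all lower with floral. The differences were -2.82 ± 0.193 (adjusted p 6.26e-07) for Olfr1123, -4.73 ± 0.341 (adjusted p 9.27e-07) for Olfr1047 and -3.20 ± 0.379 (adjusted p 0.000327) for Olfr1087. Of all genes 0.224% were called lower with floral, and of other receptor genes 4.39%. Olfr1047 was at 0.389, 0.311 and 0.164 CPM with floral and Olfr1087 at 0.467, 0.816 and 1.23, overlapping the controls in both cases. Olfr1047 and Olfr1087 are also the pair that stood out with acetophenone.

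**Figure D5:**
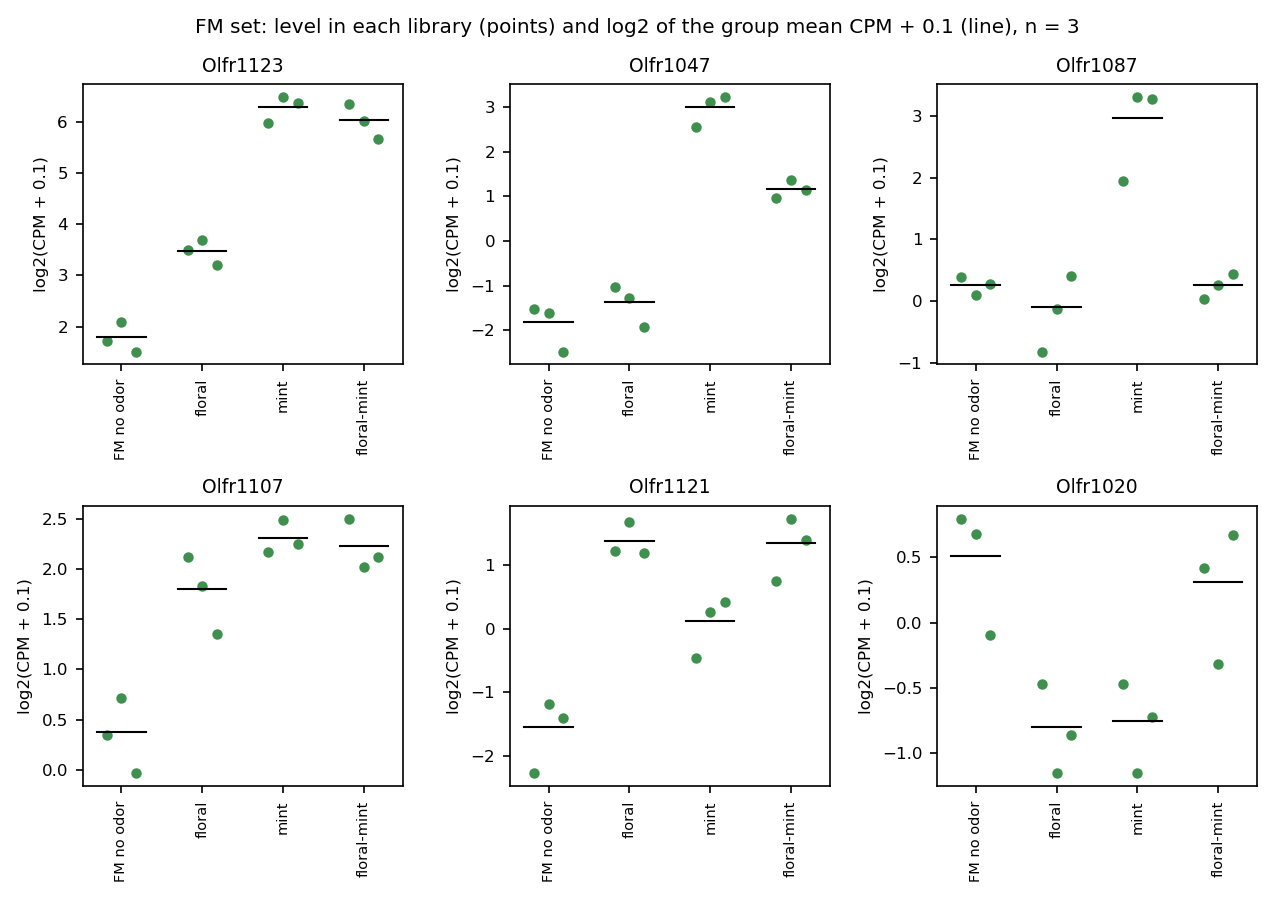
Level of 6 members in the 12 FM libraries, as log2(CPM + 0.1); points are libraries and lines the log2 of the group mean plus 0.1. Olfr1123 overlaps between floral-mint and mint, while Olfr1087 is at control level with floral-mint.

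The floral-mint mixture raised 5 of 69 members (7.25%), against 6.42% of all genes and 12.1% of other receptor genes called higher. Olfr1123 was at 81.8, 64.5 and 50.6 CPM, a log2 change of 4.28 ± 0.215 (adjusted p 1.20e-08). Olfr1047 was at 1.85, 2.47 and 2.12 CPM, a change of 3.48 ± 0.376 (adjusted p 3.96e-05), Olfr1121 rose by 3.32 ± 0.426 (adjusted p 0.000228) and Olfr1107 by 1.93 ± 0.259 (adjusted p 0.000332). These 4 stood clear of controls in every library, though Olfr1047 and Olfr1121 had under 10 counts in every control. Olfr1116 rose by 1.49 ± 0.443 (adjusted p 0.0464), and lost its call without any 1 of the 3 controls, mixture 1 or mixture 2 (adjusted p 0.0891 to 0.187), and with scaling to the receptor genes (0.0785).

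Olfr1087 set the mixture apart from mint. It was at 3.74, 9.78 and 9.60 CPM with mint and 0.926, 1.1 and 1.26 with floral-mint, a difference of -2.81 ± 0.367 (adjusted p 0.00327), and the mixture's libraries lay among the controls (1.21, 0.976 and 1.12). Olfr1047 was also lower in the mixture, with a difference of -1.87 ± 0.270 (adjusted p 0.00830). These were the 2 members called of 69 (2.90%), with 0.0417% of all genes and 0.646% of other receptor genes called lower. Olfr1047 lost this call without mint 3 (adjusted p 0.0673), mixture 1 (0.0742) or mixture 3 (0.0628), each of which left 1 call. Set against floral, the mixture was higher in Olfr1123 by 2.57 ± 0.191 (adjusted p 3.47e-06) and in Olfr1047 by 2.87 ± 0.353 (adjusted p 0.00115), with 0.115% of all genes and 2.07% of other receptor genes called higher.

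The floral-mint mixture fell short of the sum of both fragrances' log2 changes in 4 members and exceeded it in 1 (7.25% of those tested), with 3.62% of all genes and 5.43% of other receptor genes called. That sum stands for a product of fold changes, and the amount of each fragrance in the mixture was not corrected for. Olfr1123 departed by -1.97 ± 0.277 (adjusted p 0.00122), Olfr1107 by -1.58 ± 0.352 (adjusted p 0.0249), Olfr1047 by -2.48 ± 0.556 (adjusted p 0.0252) and Olfr1087 by -2.41 ± 0.548 (adjusted p 0.0271), and Olfr1020, lower with each fragrance alone, by 2.7 ± 0.585 (adjusted p 0.0212). Olfr1020 was at 1.23, 0.704 and 1.49 CPM in the mixture, overlapping the controls. DESeq2 called Olfr1123 and gave no adjusted p for the other 4. Of these 5, only Olfr1123 remained called in every alternative that gave it a value. The count was 1 without floral 2, mint 2 or mixture 3, 2 without control 1 or control 3, and 3 without floral 1, floral 3 or mixture 2.

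Several receptors were called with odors of different sets, whose controls are separate. Olfr1030, Olfr1047, Olfr1087 and Olfr1129 were called higher with both acetophenone and mint, 23.5% of acetophenone's 17 and 40.0% of mint's 10. Olfr1085, Olfr1093, Olfr1118 and Olfr1129 were called with both acetophenone and octanal, 23.5% of the 17 and 25.0% of octanal's 16. Overlaps were not counted in the other receptor genes, so these shares have no background. Some of these calls were weak: the mint call of Olfr1030 was lost in 3 of 11 alternatives. With acetophenone, Olfr1093 and Olfr1118 were far higher in library 2 than in the others. Olfr1116 was called with decanal, octanal and mint, and in all 3 mixtures, but its floral-mint call was lost in 7 of 11 alternatives. Olfr1123, high with mint, also rose with octanal, at 16.5, 8.92 and 6.21 CPM against 4.26, 2.78 and 4.20, a log2 change of 1.49 ± 0.332 (adjusted p 0.00313).

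Near-identical members did not always move together. Olfr1116 and Olfr1118 were looked at after their values were seen. Their coding sequences align over 984 bases with 31 differences (96.85% identical), spread as 9, 12 and 10 over the first, middle and last part of the alignment. The stretch with 12 of the differences, capitals at the differing bases, is printed from GENCODE vM21 transcripts of GRCm38 to show what separates the reads of these genes; it starts at coding base 352 of Olfr1116 and 349 of Olfr1118.
Olfr1116: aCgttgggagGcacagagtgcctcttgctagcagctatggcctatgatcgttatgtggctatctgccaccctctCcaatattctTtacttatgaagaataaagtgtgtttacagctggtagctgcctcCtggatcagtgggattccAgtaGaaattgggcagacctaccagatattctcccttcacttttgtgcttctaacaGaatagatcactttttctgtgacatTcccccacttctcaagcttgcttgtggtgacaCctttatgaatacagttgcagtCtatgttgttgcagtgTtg
Olfr1118: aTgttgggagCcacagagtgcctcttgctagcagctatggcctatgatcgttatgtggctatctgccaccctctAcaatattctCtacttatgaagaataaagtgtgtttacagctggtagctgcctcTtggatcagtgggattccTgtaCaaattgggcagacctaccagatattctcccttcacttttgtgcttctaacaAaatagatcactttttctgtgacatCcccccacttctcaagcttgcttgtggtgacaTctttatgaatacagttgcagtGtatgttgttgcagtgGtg
Of the 12 differences in that stretch, 6 leave the encoded residue the same and 6 change it.

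With decanal, Olfr1116 was 42.8-fold its controls by mean CPM and Olfr1118 1.00-fold. With acetophenone the ratio was 1.28 for Olfr1116 and 9.46 for Olfr1118. Octanal raised both, 11.2-fold and 6.99-fold, with log2 changes of 3.45 ± 0.366 (adjusted p 1.02e-05) and 2.78 ± 0.552 (adjusted p 0.00143). Mint was 6.61-fold for Olfr1116 and 1.15-fold for Olfr1118, at 0.862, 1.91 and 1.24 CPM against 1.14, 1.31 and 1.04. Expected counts can split a read between genes that it fits. A fractional count was found for each gene in 2 of 36 libraries, but whole counts do not show that reads were placed uniquely. The pseudogene Olfr1117-ps1 is a further copy of both, at least 95% identical over at least 200 bases. It was called higher with octanal and the OC mixture, and its part in these values was not tested.

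Among the 20 member pairs at least 90% identical, 11 had both genes tested in a set. Of these 11, 7 had a gene called in at least 1 odor comparison, and 3 had both called with the same odor. These 3 were Olfr1049 with Olfr1051 (98.71% identical) and Olfr1129 with Olfr1130 (97.88%), both with acetophenone, and Olfr1116 with Olfr1118. Olfr1129 was called with octanal (1.95) while Olfr1130 was at 0.12. Olfr1082 was called with octanal (2.84) and Olfr1080, 98.09% identical, was at 0.64. In all, 29 members have a copy at least 95% identical over at least 200 bases among receptor transcripts, and their split is uncertain. Olfr1013 and Olfr1014 overlap in their exons, as does Olfr1034 with an antisense pseudogene.

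Dividing the 102 members on chromosome 2 into 4 parts by order, Olfr987 to Olfr1028, Olfr1029 to Olfr1058, Olfr1061 to Olfr1106 and Olfr1107 to Olfr1140, acetophenone's calls fell as 1, 8, 4 and 4 of 16, 22, 20 and 18 tested members. Octanal's fell as 3, 0, 5 and 8 of 18, 21, 17 and 18, and mint's higher calls as 0, 2, 2 and 6 of 17 each. Between Olfr1045 and Olfr1057, bounds set after the values were seen, lie 12 members, of which 10 were tested and 7 were called with acetophenone. These 7 of acetophenone's 17 calls were Olfr1045, Olfr1047, Olfr1049, Olfr1051, Olfr1054, Olfr1056 and Olfr1057. Olfr1049 and Olfr1051 are 98.71% identical and Olfr1057 and Olfr1062 98.21%, so the split of their reads is uncertain. Olfr1049 and Olfr1054 had under 10 counts in every control. No test of position was made.

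Olfr1110, a receptor outside the rule, is set beside Olfr1107, since its coding sequence is the nearest to that of Olfr1107 (87.65% identical). That is below the 95% taken for a copy above. Olfr1110 rose by 3.11 in octanal and by 4.10 in cis-3-hexenol libraries, and by 3.54 with floral and 2.01 with mint, and Olfr1107 was also called higher in these 4. With floral against mint Olfr1110 was higher by 1.53, while Olfr1107, not called, was at -0.52, and with acetophenone Olfr1107, again not called, was at 0.30. Olfr1107 had a fractional count in 1 of 36 libraries, and the part of Olfr1110's reads in its counts was not tested. The 4 receptors of these numbers that the rule leaves out were each called higher with acetophenone (Olfr1026 by 5.14, Olfr1126 by 4.12, Olfr1104 by 3.55 and Olfr1110 by 1.08), so the count of 17 describes the rule's members and not the whole stretch of numbers.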

How the data were processed

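RNA-seq of pS6 immunoprecipitates of olfactory epithelium gave 36 libraries, grouped by the titles in the labels. The authors deposited 1 table of counts per gene for each set. Its values are partly fractional and not normalized, so the deposited values were treated like expected counts. The submitters' processing notes name the GRCm39 build, STAR 2.7.10b, Salmon 1.10.1 and R 4.4.2 without their roles. The annotation used for counting is not given in the sources used here. Libraries were made with a TruSeq stranded mRNA kit, per the labels' protocols.

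Counts were rounded and tested in R 4.3.3 with edgeR 4.0.16, its quasi-likelihood test, TMM scaling, filterByExpr (minimum count 10, minimum total 15), a prior count of 0.125 and Benjamini-Hochberg adjustment over all genes tested. Each set was fitted apart with all 12 of its libraries. The change with octanal was set against that with decanal in a joint fit of 2 sets. CPM were taken over the TMM-scaled library size, and a standard error is the size of the log2 change divided by the square root of F. Of 57010 gene identifiers 52081 received a GENCODE vM21 symbol. Sequences and chromosomes are from GENCODE vM21 (GRCm38), and no coordinate is given because the builds differ. Sequences were compared with blastn 2.17.0 and Biopython 1.88. Scripts were tested on simulated data.

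Named members are up to 8 called higher and 4 called lower with the smallest p against controls, with no overlap of libraries, up to 4 called each way in other comparisons, the 6 highest in controls per kilobase, members at 0 throughout, up to 4 transduction genes per comparison and the 4 receptors the rule leaves out. The members and the gene lists were chosen with earlier results of these data known. Alternatives were another scaling (median of ratios, or receptor genes alone), DESeq2 1.42.0, no filter, a replicate block, and leaving out each library. No 2 libraries of a group agreed within sampling noise. Libraries held 16.0 to 26.4 M counts, and 22 members were tested in no set.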

Additional observations from a re-analysis of the deposited data

How the results depend on the processing

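Of the alternatives run on the 22 counts of members called, 213 of 266 stayed within 1.5 times the count reported. Scaling to the receptor genes gave 1 member for decanal, 5 for the AD mixture against acetophenone and 3 for cis-3-hexenol. DESeq2 gave 5 for decanal, 9 for the AD mixture against decanal, 1 for its departure from additivity, 1 for the OC mixture against octanal, 2 for its departure, 5 for floral against mint and 1 for the floral-mint departure. With no filter these last 6 were 8, 1, 4, 4, 7 and 8, cis-3-hexenol gave 8 and the floral-mint mixture against mint 5. The cause was not tested.

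Leaving out 1 library at a time gave 10 to 18 members for acetophenone, 1 to 3 for decanal, 2 to 10 for the AD mixture against acetophenone, 1 to 3 for cis-3-hexenol, 0 to 1 for the OC mixture against octanal, 5 to 10 against cis-3-hexenol, 0 to 2 for its departure, 3 to 6 for floral, 5 to 11 for mint, 1 to 2 for the floral-mint mixture against mint and 1 to 7 for its departure. Of 59 named results against controls 44 kept their call under every alternative, and no named result changed direction.

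Libraries with the same replicate number did not deviate together at the median (correlation -0.0135 in AD, 0.0235 in OC and -0.0444 in FM). With 3 libraries per group this cannot exclude pairing, and the main fits used none. With the replicate number as a block the counts were 16 for acetophenone, 3 for decanal and 9 for their mixture, 16, 5 and 17 in the OC set, and 4, 10 and 4 in the FM set. The calls of Olfr1054 for the AD mixture against decanal, Olfr1082 for floral and Olfr1116 for floral-mint missed the threshold in that fit (adjusted p 0.0713, 0.0692 and 0.0675). In all, 22 members were tested in no set and some calls rest on under 10 control counts, where low depth and low expression cannot be told apart.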

Other observations

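Pseudogenes of the same numbers carry a suffix and are no members. They held little RNA in AD and OC controls. Of 41 the tests held 2 each in AD and OC libraries and 1 in FM libraries. Olfr1025-ps1 was called higher with acetophenone, by 4.27 on the log2 scale (adjusted p 4.66e-05, edgeR), and with the AD mixture, by 3.97. The summed level of the pseudogenes was 2.46 to 2.82 CPM in AD controls, 25.2 to 49.9 with acetophenone and 2.81 to 4.29 with decanal. Olfr1117-ps1 was called higher with octanal (adjusted p 0.00313, edgeR) and with the OC mixture (0.000756). Its OC controls were all at 0 counts, so no fold is given. The summed level overlapped there, at 0.459 to 3.42 CPM in OC controls, 1.83 to 3.45 with octanal and 2.75 to 4.53 with the mixture. Reads of such pseudogenes can come from intact receptors of like sequence, and their part in these values was not tested.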
